A study of Mus musculus with 6 samples.

Results

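The interferon regulatory factor (IRF) family was measured in granulocyte/macrophage progenitors (GMPs), the bone marrow cells that give rise to neutrophils and monocytes. Its members here are Irf1, Irf2, Irf3, Irf4, Irf5, Irf7, Irf8 and Irf9. Every probe set that the platform annotation assigns to one of these genes was taken, which gave 14 of the 45037 probe sets and 8 of the 13267 genes with a tested probe set. All 14 passed the filter on low values, which asked for a value over the array's 40th percentile on 2 or more arrays. A probe set is a group of short probes read together as 1 value for 1 transcript region, and values of different probe sets are not compared as levels.

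RNA came from sorted GMPs of BL6 mice of 3 genotypes, with 2 Affymetrix Mouse Genome 430 2.0 arrays each. The IRF4/8DKO mice lack both IRF4 and IRF8, and arrays 1 and 2 came from a male and a female mouse, both aged 16 weeks. The IRF8KO mice lack IRF8, with a female mouse of 12 weeks on array 1 and a male mouse of 22 weeks on array 2. The wild-type (WT) mice were a male of 12 weeks on array 1 and a female of 19 weeks on array 2. All 4 knockout arrays therefore carry the Irf8 deletion, and they are called IRF8-deficient where they are pooled. The labels describe each sample as coming from a mouse of its genotype, and the sources used here do not give the deleted exons or the targeting constructs. The positions of the probe sets relative to the deleted parts were not analysed here, so the Irf8 and Irf4 values below do not check the genotype labels.

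IRFs are transcription factors that share a DNA-binding domain and recognise GAAA-containing elements of interferon genes and of genes that interferons induce. Irf1, Irf2 and Irf9 act with interferon receptor signalling, Irf3, Irf5 and Irf7 are activated by kinases downstream of sensors of nucleic acid and Toll-like receptors, and Irf4 and Irf8 are the members of blood and immune cells that bind DNA with partners such as PU.1. Irf8 is known in myeloid progenitors for favouring monocyte and dendritic cell development and restraining neutrophil production.

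Promoter stretches of Irf1, Irf2 and Irf8 are shown first, because these are the genes with a probe set whose IRF8-deficient arrays all lay above WT, for Irf8 at 1 of its 2 probe sets only. Interferon-gamma signalling acts on the GAS element, spelled TTCNNNGAA, and IRFs act on the interferon-stimulated response element (ISRE), searched as GAAANNGAAA, and on the ETS-IRF composite element (EICE), searched as GGAANNGAAA. Both strands of RefSeq promoter windows of build GRCm38.p6, running from 250 bases before to 50 bases after each annotated start, were searched, with 11 windows for the 8 genes. The motifs were chosen after the expression values were seen. A GAS match lay in 3 of the 11 windows, those of Irf1, Irf2 and Irf8, and in 8.3% of all 32851 windows. An ISRE match lay in 1 member window, that of Irf2, and in 3.44% of all windows, and an EICE match lay in the same member window and in 2.72% of all windows. The matches are printed on the plus strand, which is the strand of each gene, with capitals marking the matched bases. The GAS pattern reads the same on both strands, so only the ISRE and EICE matches have a direction.
Irf1 GAS, chr11:53769909-53769947: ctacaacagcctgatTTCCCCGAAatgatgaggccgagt
Irf2 GAS, chr8:46739506-46739544: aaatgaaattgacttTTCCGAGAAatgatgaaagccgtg
Irf2 ISRE, chr8:46739495-46739528: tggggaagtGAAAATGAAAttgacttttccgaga
Irf2 EICE, chr8:46739495-46739522: tggGGAAGTGAAAatgaaattgactttt
Irf8 GAS, chr8:120736172-120736210: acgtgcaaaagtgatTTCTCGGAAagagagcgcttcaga
Irf8 GAS, chr8:120736190-120736228: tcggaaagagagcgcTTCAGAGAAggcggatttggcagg
The ISRE and EICE matches of Irf2 overlap each other, and its GAS match follows them within the same stretch. The single window of Irf8 that held a match held both GAS matches, with 162 and 144 bases between the match and the annotated start. The GAS matches of Irf1 and Irf2 left 81 and 215 bases to the start, and the ISRE and EICE matches of Irf2 left 231 and 237. A match describes letters only, and no member window other than those of Irf1, Irf2 and Irf8 held any of the 3 motifs.

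No IRF probe set passed the test in any comparison. In limma's fit over the 3 genotypes, 0 of 14 IRF probe sets had an adjusted p under 0.05 for IRF8KO against WT, where 0.0302% of all 29783 tested probe sets and 0.0452% of genes were called. The count was also 0 of 14 for IRF4/8DKO against WT, with 0.299% of probe sets and 0.407% of genes called, and for IRF4/8DKO against IRF8KO, with 0% of probe sets and 0% of genes called. Taking all IRF8-deficient arrays against WT, 0 of 14 were called, against 0.601% of probe sets and 0.746% of genes. With so few calls among all genes, 0 of 14 is what the background share gives, and it does not show that the family was equal between genotypes. At an unadjusted p under 0.05 the counts were 2, 3, 1 and 3 of 14 in those 4 comparisons, against 4007, 2696, 2538 and 3447 of all 29783 probe sets. Both comparisons against WT use the same WT arrays, and the comparison of all IRF8-deficient arrays uses all 6.

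**Figure D1:**
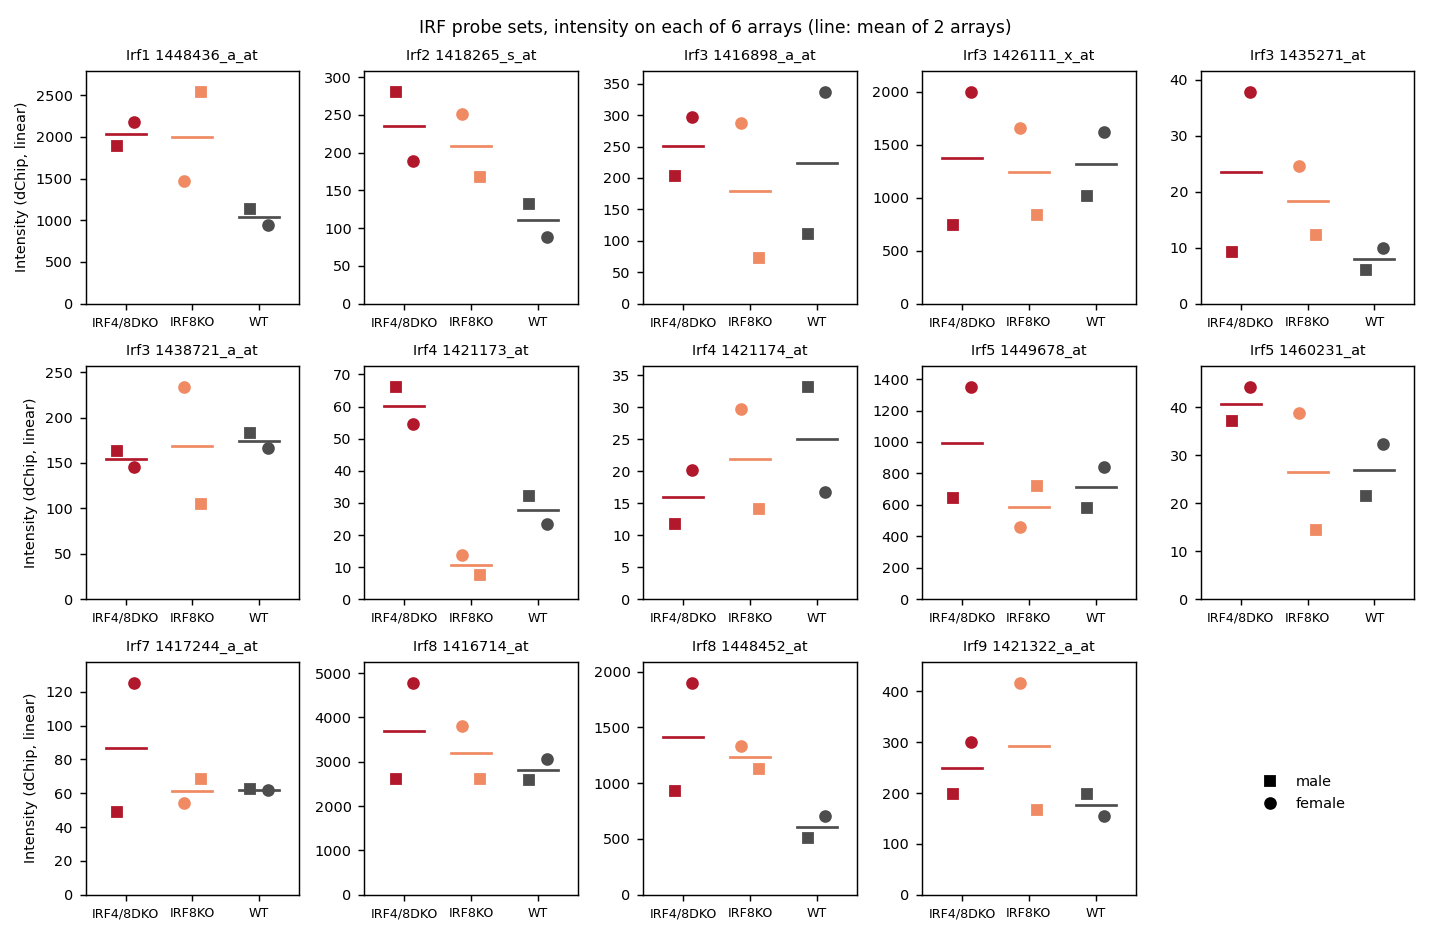
Intensity (linear dChip units, each panel with its own axis starting at 0) of the 14 IRF probe sets on the 6 arrays, with squares for male and circles for female mice and a line at the mean of the 2 arrays of a genotype. In Irf1, Irf2 and the Irf8 probe set 1448452_at all 4 IRF8-deficient arrays sit above both WT arrays, and in the Irf4 probe set 1421173_at the 3 genotypes do not overlap.

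Irf8, deleted in both knockout genotypes, is read by a pair of probe sets, and only 1448452_at separated the IRF8-deficient arrays from WT. Probe set 1416714_at read 2611 and 4778 in IRF4/8DKO, 3811 and 2602 in IRF8KO, and 2588 and 3052 in WT. The 3 genotypes overlapped, and the female IRF4/8DKO array was the highest. Probe set 1448452_at read 934 and 1899.8 in IRF4/8DKO, 1333 and 1131 in IRF8KO, and 507 and 704 in WT. Here all 4 IRF8-deficient arrays lay above both WT arrays, with the male IRF4/8DKO array nearest to WT. Over all IRF8-deficient arrays against WT the log2 fold change of 1448452_at was 1.08 ± 0.37 (SE of the limma fit), or 2.12-fold, with an adjusted p of 0.287. An exact two-sided permutation test of the 4 against the 2 arrays gave p = 0.0667, the smallest that 15 arrangements allow. For 1416714_at the log2 fold change was 0.25 ± 0.29, with an adjusted p of 0.801 and an exact permutation p of 0.467. Between the knockout genotypes neither probe set differed beyond its spread, with log2 fold changes of 0.17 ± 0.33 for 1416714_at and 0.12 ± 0.42 for 1448452_at in IRF4/8DKO against IRF8KO. At both probe sets no IRF8-deficient array read below the lower of the WT arrays.

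The ratio of the Irf8 probe sets on the same array removes what an array does to both alike. The ratio of 1448452_at to 1416714_at was 0.358 and 0.398 in IRF4/8DKO, 0.350 and 0.435 in IRF8KO, and 0.196 and 0.231 in WT. All 4 IRF8-deficient arrays lay above the WT arrays, and the knockout genotypes overlapped. The share of all pairs without such overlap is not given here. The ratio alone does not tell which of the probe sets moved. Fitted with limma as a log2 ratio beside the 11276 probe set pairs of all genes, a measure chosen after the Irf8 values were seen, it was 1.79-fold higher in the IRF8-deficient arrays (log2 difference 0.84 ± 0.29, adjusted p = 0.682). None of the 11276 pairs passed the test (0%), and 791 had an unadjusted p under 0.05. The exact permutation p was 0.0667, again the smallest possible. In the same limma fit, the ratio of Irf3 1435271_at to 1426111_x_at was also higher (0.79 ± 0.30, adjusted p = 0.687). No IRF8-deficient array overlapped WT there, but 1435271_at passed the filter on 2 arrays only. The remaining Irf3 ratios and those of Irf4 and Irf5 overlapped in that comparison. For IRF4/8DKO against IRF8KO the ratio of Irf4 1421174_at to 1421173_at was lower without overlap (log2 difference -2.01 ± 0.39, adjusted p = 0.436). Both IRF8KO arrays were under the filter at 1421173_at.

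**Figure D2:**
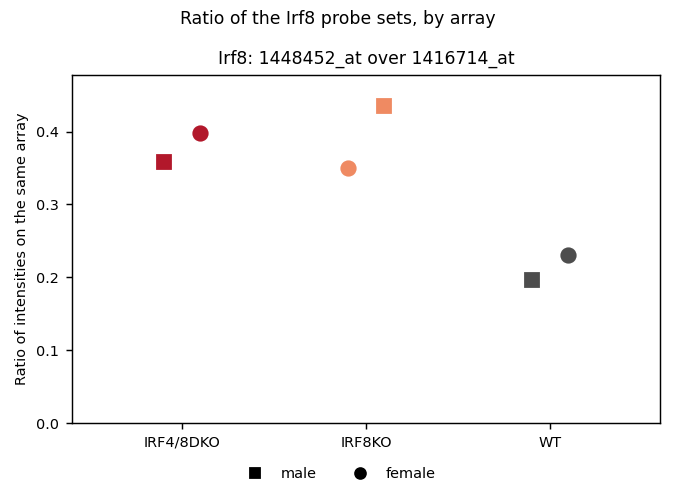
Ratio of the Irf8 probe set 1448452_at to 1416714_at on the same array (linear axis from 0), with squares for male and circles for female mice. The ratio is 0.350 to 0.435 on the 4 IRF8-deficient arrays and at most 0.231 on the WT arrays.

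Irf4, deleted in the IRF4/8DKO mice only, is known for its roles in lymphocytes and also acts in myeloid cells. Probe set 1421173_at read 65.99 and 54.6 in IRF4/8DKO, 13.8 and 7.66 in IRF8KO, and 32.1 and 23.45 in WT. The 3 genotypes did not overlap, with IRF4/8DKO on top, WT between and IRF8KO lowest, and the value lay above the filter on 4 of 6 arrays. The arrays under the filter were both IRF8KO arrays, where its level was 22.65 and 22.2, so how far they lay below IRF4/8DKO has no measured size. On the scale with the pseudocount, a constant added before taking log2, the log2 fold change of IRF4/8DKO against IRF8KO was 1.75 ± 0.39 (unadjusted p = 0.00147, adjusted p = 0.482). Against WT, the log2 fold change was 0.89 ± 0.39 in IRF4/8DKO (adjusted p = 0.534) and -0.86 ± 0.39 in IRF8KO (adjusted p = 0.379). Of the 14 probe sets this was the only one whose IRF4/8DKO arrays did not overlap the IRF8KO arrays, where 19.3% of all probe sets had every IRF4/8DKO array above every IRF8KO array and 17.3% every one below. The second Irf4 probe set, 1421174_at, read 11.8 and 20.2 in IRF4/8DKO, 29.7 and 14.1 in IRF8KO, and 33.1 and 16.8 in WT. It lay above the filter on 3 of 6 arrays, its genotypes overlapped, and its IRF4/8DKO against IRF8KO log2 fold change was -0.27 ± 0.44. As the values of both Irf4 probe sets lie near the low end of the arrays, these fold changes depend on the pseudocount of 10.5.

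Irf1 and Irf2, an activator and its competitor on the same interferon response elements, had 1 probe set each and lay on the same side of WT. Irf1 read 1885 and 2177 in IRF4/8DKO, 1465 and 2539.8 in IRF8KO, and 1137 and 948 in WT. All IRF8-deficient arrays were above WT, and the IRF8KO arrays spanned the IRF4/8DKO arrays. The log2 fold change against WT was 0.96 ± 0.35 in IRF4/8DKO (adjusted p = 0.428) and 0.89 ± 0.35 in IRF8KO (adjusted p = 0.322). Over all IRF8-deficient arrays it was 0.92 ± 0.30, or 1.90-fold, with an adjusted p of 0.265, the lowest of the family in any comparison. Irf2 read 280.4 and 189 in IRF4/8DKO, 251 and 167 in IRF8KO, and 132 and 88.4 in WT. Its IRF8-deficient arrays also lay above WT without overlap, by a log2 fold change of 0.94 ± 0.40 (1.92-fold, adjusted p = 0.408). The difference between the knockout genotypes was smaller than its error for both genes, at 0.07 ± 0.35 for Irf1 and 0.16 ± 0.46 for Irf2.

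Irf3, the constitutively expressed member that TBK1 activates after nucleic acid sensing, had 4 probe sets, and none separated the genotypes in all comparisons. Its representative probe set 1426111_x_at, the one with the highest mean, read 747 and 2001 in IRF4/8DKO, 837 and 1660.4 in IRF8KO, and 1022 and 1623 in WT, each pair given with the male array first. In every genotype the female array was the higher one, and log2 fold changes against WT were -0.07 ± 0.53 in IRF4/8DKO and -0.13 ± 0.53 in IRF8KO. Probe set 1416898_a_at ranged between 73.0 and 337 over the 6 arrays, with the lowest value in an IRF8KO array and the highest in a WT array. Probe set 1438721_a_at read 164 and 146 in IRF4/8DKO, 233 and 104 in IRF8KO, and 183 and 166 in WT, so the IRF4/8DKO arrays lay just below WT (log2 fold change -0.17 ± 0.48). Probe set 1435271_at read 9.24 and 37.85 in IRF4/8DKO, 24.6 and 12.2 in IRF8KO, and 5.95 and 9.88 in WT, and it passed the filter on 2 arrays only, both of them knockouts. Its presence among the tested probe sets rests on those arrays.

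Irf5, which MyD88 signalling activates and which induces inflammatory cytokines, read 645 and 1347 in IRF4/8DKO, 457 and 719 in IRF8KO, and 579 and 842 in WT at probe set 1449678_at. The genotypes overlapped, and the log2 fold change of IRF4/8DKO against IRF8KO was 0.69 ± 0.47 (adjusted p = 0.701). At probe set 1460231_at Irf5 read 37.2 and 44.1 in IRF4/8DKO, 38.7 and 14.4 in IRF8KO, and 21.4 and 32.4 in WT. The IRF4/8DKO arrays lay above WT there, by a log2 fold change of 0.47 ± 0.44 that is close to its error. This probe set lay above the filter on 4 of 6 arrays. WT array 1 and IRF8KO array 2 were under it, where its level was 25.91 and 22.16. Irf7, the member that amplifies type I interferon production, read 48.8 and 125 in IRF4/8DKO, 54.2 and 68.5 in IRF8KO, and 62.7 and 61.8 in WT. The female IRF4/8DKO array was the high one and the male IRF4/8DKO array the lowest of all 6. Irf9, a DNA-binding factor of the type I interferon response, read 198 and 300.4 in IRF4/8DKO, 417 and 168 in IRF8KO, and 197 and 154 in WT. The log2 fold changes of Irf9 against WT were 0.46 ± 0.53 in IRF4/8DKO and 0.58 ± 0.53 in IRF8KO, and the male IRF4/8DKO array differed from the male WT array by under 1 intensity unit.

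**Figure D3:**
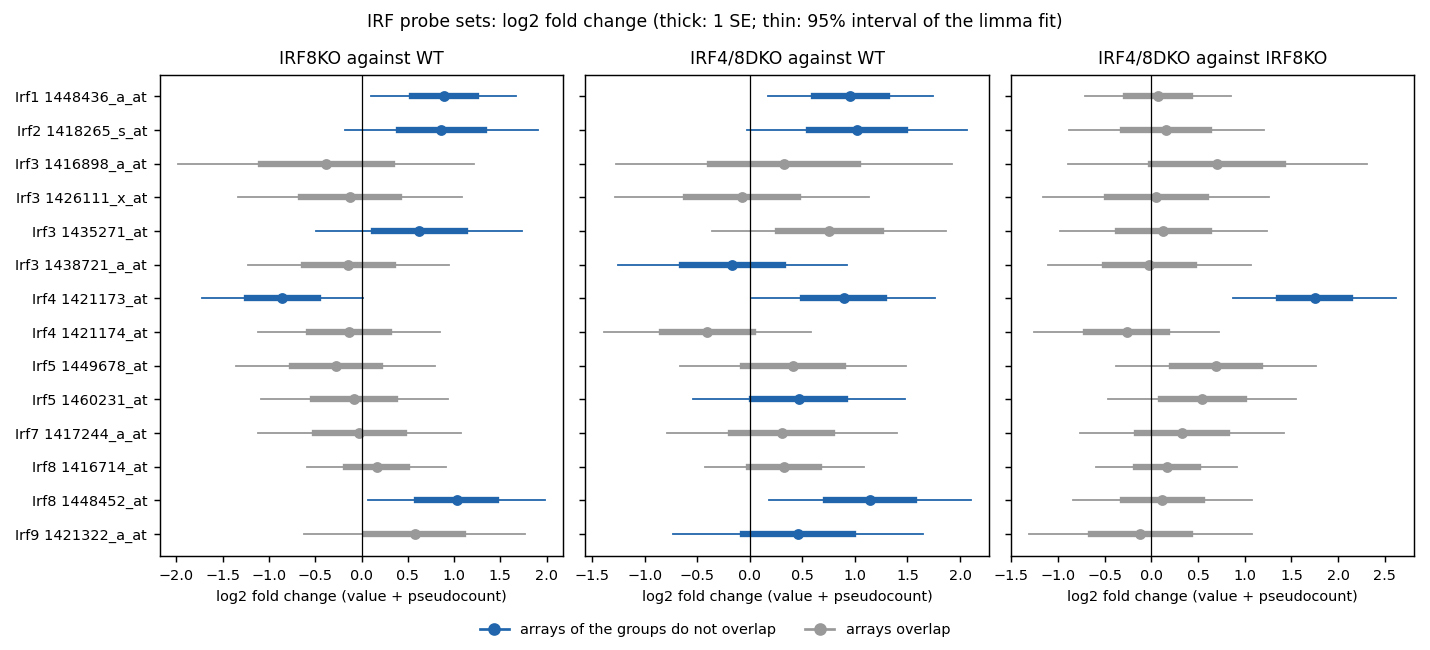
Log2 fold change (on log2 of value plus pseudocount) of the 14 IRF probe sets in 3 comparisons, with thick bars for 1 SE and thin bars for the 95% interval of the limma fit, and blue where the arrays of the groups do not overlap. Irf1, Irf2 and Irf8 1448452_at lie at 0.86 to 1.14 against WT in both knockout genotypes, and Irf4 1421173_at stands at 1.75 in IRF4/8DKO against IRF8KO, with both IRF8KO arrays under the filter.

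Across the family, the arrays of IRF4/8DKO all lay above WT in 6 of 14 probe sets and all below in 1, where 18.3% of all probe sets lay above and 25.3% below. Those above were Irf1, Irf2, Irf4 1421173_at, Irf5 1460231_at, Irf8 1448452_at and Irf9, with Irf5 1460231_at under the filter on WT array 1. In IRF8KO 4 of 14 lay above WT and 1 below, against 19.8% above and 25.9% below over all probe sets. The 4 were Irf1, Irf2, Irf3 1435271_at and Irf8 1448452_at, and the 1 below was Irf4 1421173_at. Of these, Irf3 1435271_at was tested only because of 2 knockout arrays, and Irf4 1421173_at was under the filter on both IRF8KO arrays. All 4 IRF8-deficient arrays lay above WT in 3 of 14, against 8.51% of all probe sets, and below in 0 of 14, against 12.5%. As the members were chosen with results known, these counts carry no test. With 1 representative probe set per gene, the median log2 fold change of the 8 genes was 0.44 for IRF4/8DKO against WT, 0.07 for IRF8KO against WT and 0.16 for IRF4/8DKO against IRF8KO. For IRF8KO against WT that median was 0.284 with the mean over all kept probe sets of a gene and 0.369 with the filter at the 60th percentile, against 0.448 and 0.435 for IRF4/8DKO against WT. The medians of all 13267 genes were 0.03, 0.04 and -0.01. In IRF4/8DKO 7 of the 8 genes were above zero against WT, the exception being Irf3, and in IRF8KO 4 of 8 were.

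The IRF4/8DKO median rests on the female array. Taken per array against the WT mean, the family median was 0.03 and 0.77 in IRF4/8DKO, 0.40 and -0.01 in IRF8KO, and 0.07 and -0.07 in WT. Without IRF4/8DKO replicate 2 the family median against WT was 0.03, and without replicate 1 it was 0.77. Since each genotype had 1 male and 1 female mouse, the comparisons can be drawn within sex, with 1 array on each side and no test. Between male arrays the family median was 0.08 for IRF4/8DKO against WT, and between female arrays it was 0.91. For IRF8KO against WT it was 0.06 between male and 0.18 between female arrays, and for IRF4/8DKO against IRF8KO -0.07 between male and 0.45 between female arrays. The sexes gave opposite directions in 4 of 14 probe sets for IRF4/8DKO against WT, in 7 of 14 for IRF8KO against WT and in 9 of 14 for IRF4/8DKO against IRF8KO, where 38.5%, 41.8% and 51.2% of all probe sets did. Irf1, Irf2 and Irf8 1448452_at were above WT in both sexes and in both knockout genotypes. That follows from all their IRF8-deficient arrays lying above both WT arrays. Within WT and within IRF8KO the mice also differed in age, so sex, age and mouse cannot be told apart there. Both IRF4/8DKO mice were aged 16 weeks, and within that genotype sex and mouse cannot be told apart.

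**Figure D4:**
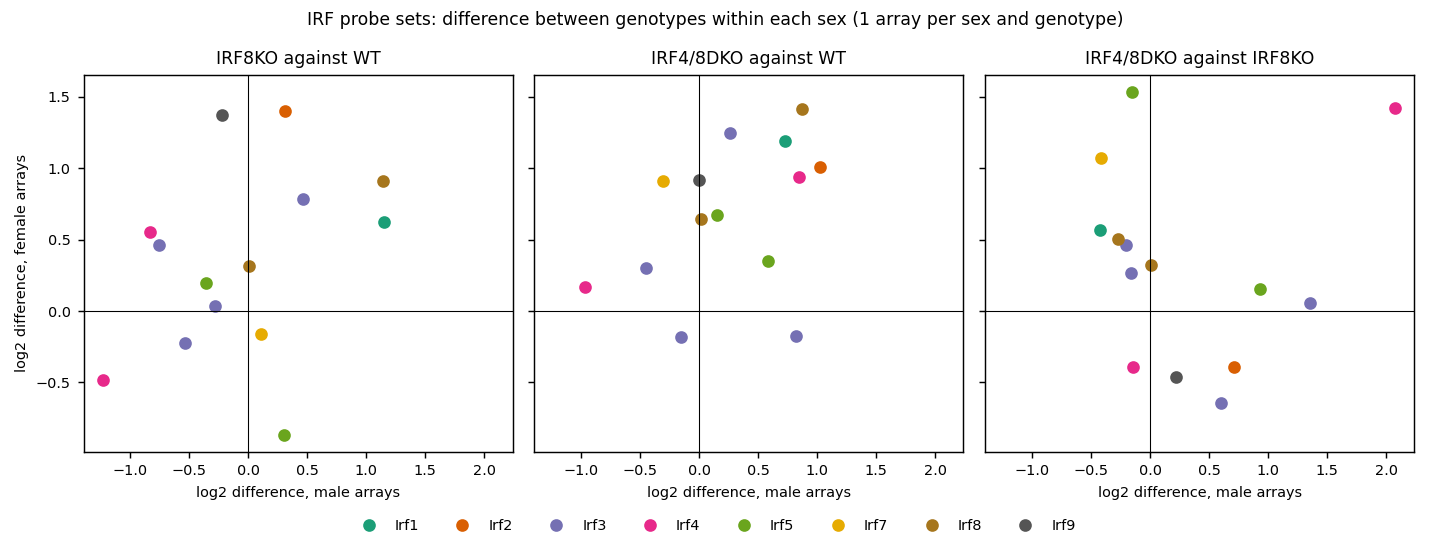
Log2 difference between genotypes for each IRF probe set between male arrays (horizontal axis) and between female arrays (vertical axis), 1 array per sex and genotype, coloured by gene. Points in the upper left and lower right have opposite directions in the sexes, which holds for 7, 4 and 9 of the 14 probe sets in the panels from left to right.

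The genes that act around the family were taken as 5 lists, and 0 of the tested members of each passed the test in any comparison. Among interferon receptors and JAK-STAT genes, 11 of 12 were tested, and their median log2 fold change was 0.24 for IRF4/8DKO against WT and 0.46 for IRF8KO against WT. Ifngr1, the ligand-binding chain of the interferon-gamma receptor, read 4896 and 4226 in IRF4/8DKO, 5175 and 4933 in IRF8KO, and 2773 and 2815 in WT. The 4 IRF8-deficient arrays lay above WT with a narrow spread in each genotype, and the log2 fold change was 0.78 ± 0.18 (1.71-fold, adjusted p = 0.108). Ifngr2, its signalling chain, read 732 and 955 in IRF4/8DKO, 939 and 468 in IRF8KO, and 344 and 325 in WT. It also did not overlap WT, with a log2 fold change of 1.13 ± 0.39 over the IRF8-deficient arrays (adjusted p = 0.290). For IRF4/8DKO against IRF8KO the members with the lowest p were Jak2, a kinase bound to the interferon-gamma receptor (log2 fold change -0.80 ± 0.46, adjusted p = 0.659), and Ifnlr1, the type III interferon receptor chain (-0.61 ± 0.38, adjusted p = 0.677).

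Of the sensors and kinases upstream of IRF3, IRF5 and IRF7, 13 of 17 were tested, and all 13 were above zero over the IRF8-deficient arrays against WT, with a median of 0.55 beside 0.04 for all genes and 53.3% of all genes above zero. Above zero were 10 of 13 in IRF4/8DKO against WT and 12 of 13 in IRF8KO against WT, beside 52.5% and 53.1% of all genes. Per array the list's median against the WT mean was 0.225 and 1.04 in IRF4/8DKO and 0.212 and 0.448 in IRF8KO, highest on the female IRF4/8DKO array. Ikbke, which encodes a kinase of IRF3 and IRF7, read 795 and 1348 in IRF4/8DKO, 1307 and 1375 in IRF8KO, and 471 and 601 in WT. No IRF8-deficient array overlapped WT, at a log2 fold change of 1.13 ± 0.33 (2.19-fold, adjusted p = 0.214). Slc15a4, an endolysosomal transporter needed for IRF5 activation, was 2.04-fold above WT over the IRF8-deficient arrays (log2 fold change 1.03 ± 0.47, adjusted p = 0.443), with 1 IRF8KO array inside the WT range. Sting1, the adaptor of cytosolic DNA sensing, had a log2 fold change of 0.53 ± 0.31 in IRF8KO against WT (adjusted p = 0.490). In IRF4/8DKO against IRF8KO the list's median was -0.02, and its lowest p belonged to Irak1, a MyD88-dependent kinase, where 1 IRF8KO array read 7499 and the other 5 arrays between 1565 and 2674. Myd88, the adaptor of most Toll-like receptors, was next, with 485 and 1262 in IRF4/8DKO against 525 and 431 in IRF8KO (adjusted p = 0.710).

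Among DNA-binding partners of IRF4 and IRF8, 9 of 11 were tested, with medians of 0.21 in IRF4/8DKO against WT and 0.02 in IRF8KO against WT. Spi1, which encodes PU.1, read 911 and 3301 in IRF4/8DKO, 1824 and 2797 in IRF8KO, and 949 and 798 in WT. The IRF8KO arrays lay above WT (log2 fold change 1.37 ± 0.55, adjusted p = 0.331), while 1 IRF4/8DKO array lay among the WT arrays. Batf, an AP-1 factor that binds with IRF4 and IRF8 on composite elements, read 609 and 834 in IRF4/8DKO, 285 and 117 in IRF8KO, and 424 and 840.0 in WT. IRF8KO was the low genotype, with log2 fold changes of -1.65 ± 0.54 for IRF8KO against WT (adjusted p = 0.254) and 1.90 ± 0.54 for IRF4/8DKO against IRF8KO (adjusted p = 0.537). The members next in order were Ets1, with a log2 fold change of -0.62 ± 0.44 in IRF4/8DKO against IRF8KO (adjusted p = 0.711), and Tcf3, with -0.37 ± 0.39 in IRF4/8DKO against WT (adjusted p = 0.851).

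The IRF regulators, of which 8 of 10 were tested, had medians of 0.10 in IRF4/8DKO against WT and -0.29 in IRF8KO against WT. Trim21, a ubiquitin ligase that acts on several IRFs, read 679 and 871 in IRF4/8DKO, 322 and 388 in IRF8KO, and 635 and 729 in WT. Def6, a binding partner that keeps IRF4 from DNA, read 866 and 1496 in IRF4/8DKO, 591 and 457 in IRF8KO, and 765 and 841 in WT. In both genes the IRF8KO arrays were the lowest and did not overlap the IRF4/8DKO arrays, by a log2 fold change of 1.098 ± 0.384 for Trim21 (adjusted p = 0.551) and 1.12 ± 0.40 for Def6 (adjusted p = 0.556). Fkbp4, an immunophilin reported to bind IRF4, had a log2 fold change of -0.89 ± 0.36 in IRF8KO against WT (adjusted p = 0.333), and Trim28, a corepressor, one of 0.45 ± 0.31 over the IRF8-deficient arrays (adjusted p = 0.648).

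The interferon-stimulated genes, the best known targets of the family, were tested for 25 of 30 members. Their median was 0.52 in IRF4/8DKO against WT, with 18 of 25 above zero beside 52.5% of all genes. In IRF8KO against WT it was -0.04, with 12 of 25 above zero beside 53.1% of all genes. In IRF4/8DKO against IRF8KO it was 0.37, with 20 of 25 above zero beside 49% of all genes. Per array the list's median against the WT mean was 0.13 and 0.74 in IRF4/8DKO, -0.03 and -0.02 in IRF8KO, and close to 0 in WT, so the female IRF4/8DKO array was again the high one. Rsad2, an antiviral enzyme, read 131 and 634 in IRF4/8DKO, 40.9 and 20.1 in IRF8KO, and 143 and 101 in WT. Its IRF4/8DKO arrays lay above the IRF8KO arrays (log2 fold change 2.93 ± 0.69, 7.63-fold, adjusted p = 0.508), with 1 of them inside the WT range. Psmb8, an immunoproteasome subunit, read 2805 and 3592 in IRF4/8DKO, 1120 and 1739 in IRF8KO, and 3046 and 4593 in WT. IRF8KO was its low genotype, by a log2 fold change of -1.42 ± 0.33 against WT (adjusted p = 0.133). Gbp2, an interferon-induced GTPase, had the lowest p for IRF4/8DKO against WT (1.35 ± 0.46, adjusted p = 0.397), followed by Tap1, a peptide transporter of antigen presentation (0.80 ± 0.42, adjusted p = 0.653). Oas2, an antiviral oligoadenylate synthetase, read 74.1 and 180 in IRF4/8DKO, 186 and 136 in IRF8KO, and 73.6 and 56.2 in WT (all IRF8-deficient arrays against WT, log2 fold change 0.97 ± 0.43, adjusted p = 0.438).

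**Figure D5:**
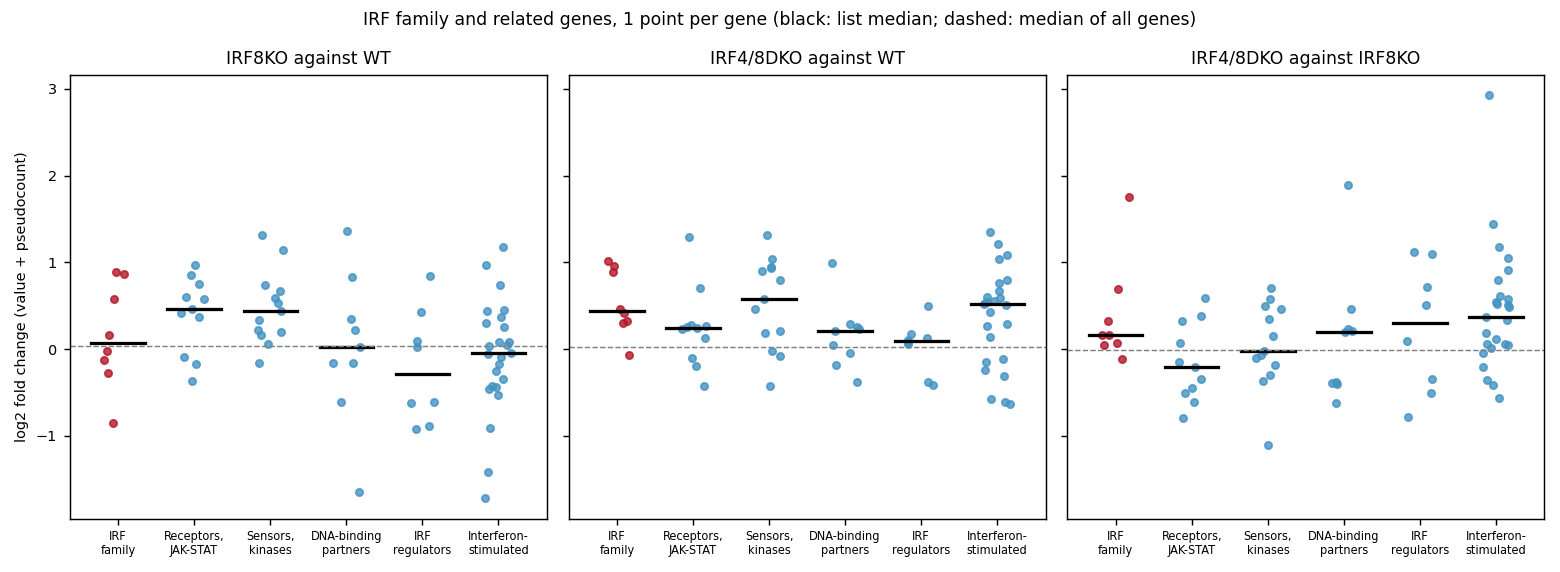
Log2 fold change (on log2 of value plus pseudocount) of each tested gene of the IRF family (red) and of the 5 related lists (blue) in 3 comparisons, with black lines at list medians and a dashed line at the median of all genes. The interferon-stimulated genes have a median of 0.52 in IRF4/8DKO against WT and -0.04 in IRF8KO against WT, and the highest point in the right panel is Rsad2 at 2.93.

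The genes whose pattern over the 6 arrays was most like that of each member were named as the top 3 by Pearson r among 8268 genes with a log2 range of at least 1. With 6 arrays and this many candidates a high r is a description of the arrays only. For Irf8 they were Pisd (r = 0.991), Tlcd2 (0.987) and Dhdds (0.984), and for Irf4 Phlda2 (0.989), Naaladl2 (0.987) and Prdm2 (0.981). For Irf1 they were Arel1 (0.995), Car9 (0.993) and Ascl2 (0.982), and for Irf2 Klf3 (0.991), Glul (0.985) and Slc44a1 (0.985). Irf3 was followed by BC049762 (0.968), AA467197 (0.955) and Gnl3 (0.954). Irf5 was followed by Mrps34 (0.997), Rufy1 (0.993) and Lmf2 (0.990), and Irf7 by Pop7 (0.995), Hirip3 (0.987) and Gemin7 (0.986). Irf9 was followed by Tcte1 (0.992), Rbp4 (0.988) and Parp14 (0.987), of which Parp14 is on the list of interferon-stimulated genes. No other listed gene of the pathway was among these 24 genes.

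The sorted cells carried the markers of GMPs, with Mpo at 12946 to 15417 and Elane at 7434 to 9950.0 on all arrays. Of genes that define other cells, Siglech, Pax5, Cd3e and Ms4a1 were at most 21.15, but other members of their lists read higher. Flt3 and Tcf4 of the dendritic list read 58.6 to 164 and 580 to 1043. Cd79a and Vpreb1 of the B cell list read 37.2 to 71.9 and 185 to 1275. T and NK markers, 4 tested of 10, summed to 1248 and 2088 in IRF4/8DKO, 1287 and 1795 in IRF8KO, and 960 and 1120 in WT. Nkg7 accounted for 1181 and 2023 in IRF4/8DKO, 1200 and 1710 in IRF8KO, and 706 and 1023 in WT. Over the IRF8-deficient arrays against WT, 2 of these 4 were above and 2 below zero. Monocyte and macrophage markers, 8 tested of 10, summed to 11789 and 16435 in IRF4/8DKO, 12357 and 12810.0 in IRF8KO, and 4197 and 5815 in WT, and 4 of 8 rose in IRF4/8DKO against WT, where 0.407% of all genes were called. The sums lay above WT on all 4 IRF8-deficient arrays, but 2 of the 8 members were below zero in IRF4/8DKO against WT. In IRF8KO against WT 2 of 8 were also below zero, and 0 of 8 were called beside 0.0452% of all genes. Neutrophil markers, 10 of 10, summed to 21522 and 47537 in IRF4/8DKO, 26048 and 49358 in IRF8KO, and 12552 and 30742 in WT, with replicate 2 the higher array in each genotype, and 1 of 10, Mmp8, rose in IRF4/8DKO against WT. Eosinophil, basophil and mast cell markers, 9 of 10, summed to 536 and 613 in IRF4/8DKO, 4113 and 1801 in IRF8KO, and 12834 and 7867 in WT, and 4 of 9 fell in IRF4/8DKO against WT. Megakaryocyte markers, 5 of 8, summed to 83.0 and 120 in IRF4/8DKO, 1017 and 624 in IRF8KO, and 4511 and 1112 in WT, and 2 of 5 fell in IRF4/8DKO against WT. Erythroid markers, 7 of 10, summed to 6186 and 4449 in IRF4/8DKO, 4144 and 4064 in IRF8KO, and 8388 and 6810.1 in WT, and 2 of 7 fell over the IRF8-deficient arrays, where 0.746% of all genes were called. Tfrc accounted for 5942 and 4271 of these sums in IRF4/8DKO, 3336 and 3777 in IRF8KO, and 3158 and 4677 in WT. Its log2 fold change over the IRF8-deficient arrays was 0.14, and the other 6 were below zero. The members that fell were Car2 (-4.05 ± 0.66) and Gata1 (-3.22 ± 0.56). B and plasma cell markers, 8 of 10, had 4 members above and 4 below zero over those arrays, with a median of 0.09. Their sum was 1291 and 1979 in IRF4/8DKO, 1643 and 2069 in IRF8KO, and 902 and 826 in WT, and the 1 member that rose, Vpreb1, accounted for 668 and 1006 in IRF4/8DKO, 771 and 1275 in IRF8KO, and 187 and 185 in WT. Of the sort gate, Cd34 read 590.3 and 509 in IRF4/8DKO, 440.3 and 669 in IRF8KO, and 1747 and 1401 in WT (all IRF8-deficient arrays against WT, log2 fold change -1.50 ± 0.33, adjusted p = 0.0998). Fcgr3 read 2516 and 5863 in IRF4/8DKO, 2618 and 6315 in IRF8KO, and 1089.6 and 1259 in WT (1.75 ± 0.42, adjusted p = 0.129), while Kit had a log2 fold change of 0.16 ± 0.25 (adjusted p = 0.864). Csf1r, a marker of monocytes listed with the gate, had one of 1.40 ± 0.43 (adjusted p = 0.231). Of the genes gated out, 4 of 11 were tested, with 3 above zero and 1 below. Among them Itgam read 81.6 and 134 in IRF4/8DKO, 85.6 and 88.6 in IRF8KO, and 35.6 and 40.2 in WT (1.135 ± 0.361, adjusted p = 0.251). The part of these marker levels in the IRF values was not tested, and in bulk RNA fewer cells of a type and less RNA per cell cannot be told apart. The arrays had medians of 37.5 and 34.1 in IRF4/8DKO, 38.6 and 38.4 in IRF8KO, and 45.3 and 41.7 in WT, and the 2 arrays differed by more than 2-fold in 4230 probe sets in IRF4/8DKO, 7160 in IRF8KO and 1863 in WT.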

How the data were processed

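Expression was measured in GMP RNA on 6 arrays, labelled from 10 ng of total RNA per the labels' protocols. The authors normalized the arrays and computed intensity values with the perfect-match minus mismatch model of dChip 1.3, per the series' design text. The deposited intensity values are linear and range over 0.69 to 16563.28, and the sources used here do not say how the arrays were normalized or low values treated. The small number of arrays, which have no read depth, limits the precision.

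A pseudocount of 10.5 (25th percentile over the whole table) was added before taking log2, so fold changes understate those of low genes. Probe sets had to exceed their array's 40th percentile on 2 or more of 6 arrays, as 29783 did. Gene symbols came from GEO's platform annotation, updated through RefSeq gene identifiers: 34945 probe sets had 1 symbol, 932 several and 9160 none, and none with several named an IRF. Of several kept probe sets of a gene, the one with the highest mean stood for it. One limma model (limma 3.58.1, R 4.3.3, empirical Bayes with a variance trend) covered the 3 genotypes, with Benjamini-Hochberg adjustment over all kept probe sets and a threshold of 0.05. Errors are SEs of that fit. A fixed rule named every IRF probe set, and from each pathway list the genes past the threshold or up to 2 with the lowest p per comparison. The p-values rest on the spread between samples of a genotype, 2 per genotype, pooled over the 3 genotypes. In the main fit limma drew this spread toward the trend over all kept probe sets, with 3 residual and 5.84 prior degrees of freedom. The members, the pathway and marker lists and the comparison of all IRF8-deficient arrays were chosen with earlier results of these data known. The probe set ratios and the promoter motifs were added after the values were seen. The ratios were fitted with limma without a trend. The alternatives were other pseudocounts, filters and normalizations, no trend, only the compared genotypes, blocks for sex or replicate number, age, and leaving out each array. The scripts were tested on simulated data.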

Additional observations from a re-analysis of the deposited data

Results flagged for a closer look

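Within each sex every comparison has 1 array per genotype, and 20 results of IRF probe sets went in opposite directions in the male and the female mice. These differences between sexes were not tested, and the same held for 41.8% of all probe sets for IRF8KO against WT, for 38.5% with IRF4/8DKO in place of IRF8KO, and for 51.2% between the knockout genotypes. The values below are the male minus the female log2 difference.

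For IRF8KO against WT they were -0.32 for Irf3 1426111_x_at, -1.22 for Irf3 1438721_a_at and -1.39 for Irf4 1421174_at. The other values of that comparison were 1.17 for Irf5 1449678_at, -0.55 for Irf5 1460231_at, 0.27 for Irf7 and -1.60 for Irf9. For IRF4/8DKO against WT they were 0.99 for Irf3 1416898_a_at, -0.75 for Irf3 1426111_x_at, -1.14 for Irf4 1421174_at and -1.21 for Irf7.

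For IRF4/8DKO against IRF8KO they were -0.996 for Irf1, 1.11 for Irf2, -0.43 for Irf3 1426111_x_at, -0.67 for Irf3 1435271_at and 1.24 for Irf3 1438721_a_at. In the same comparison they were -1.69 for Irf5 1449678_at, -1.48 for Irf7, -0.78 for Irf8 1448452_at and 0.68 for Irf9. Irf7 and Irf3 1426111_x_at went in opposite directions in the sexes in all 3 comparisons. The Irf4 probe set 1421173_at did so in none of the 3, which follows from its genotypes not overlapping. Neither did Irf8 1416714_at, but its male differences were only 0.008, 0.013 and 0.005 in the order above.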

How the results depend on the processing

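No IRF probe set was called under any alternative in the 4 comparisons, and the lowest adjusted p over the alternatives was 0.0925 for IRF8KO against WT, 0.193 for IRF4/8DKO against WT, 0.0762 for IRF4/8DKO against IRF8KO and 0.0655 for all IRF8-deficient arrays against WT. Of 918 alternative log2 fold changes of 56 results (14 probe sets in 4 comparisons), 853 kept their direction and 65 reversed, and 23 results never reversed. The filters, the trend, the blocks and the fits to only the compared genotypes cannot move these fold changes. Nor can leaving out an array of a genotype that is not compared. The count of kept directions therefore includes settings that could not reverse a result. Counts of all probe sets called moved widely: 9 for IRF8KO against WT became 0 without WT replicate 1 and 1090 without IRF8KO replicate 1, and 89 for IRF4/8DKO against WT became 0 with sex as a block and 484 without IRF8KO replicate 2. The 0 of IRF4/8DKO against IRF8KO became 200 without IRF8KO replicate 1, and the 179 of all IRF8-deficient arrays became 0 without WT replicate 1 and 1020 without IRF8KO replicate 1. The family median against WT ranged over 0.031 to 0.770 in IRF4/8DKO and that of IRF4/8DKO against IRF8KO over -0.151 to 0.679 when 1 array was left out, with both ends set by IRF4/8DKO replicates 2 and 1. Same-numbered arrays were not taken as pairs, since not every correlation of their deviations from the group means was over 0.1: it was 0.041 for IRF8KO with WT, 0.187 for IRF4/8DKO with WT and 0.211 for IRF4/8DKO with IRF8KO. With the replicate number as a block, which cannot move fold changes in this balanced design, the IRF calls stayed at 0, and calls over all probe sets were 209 for IRF8KO against WT, 216 for IRF4/8DKO against WT, 1 for IRF4/8DKO against IRF8KO and 391 for all IRF8-deficient arrays. The Irf8 probe set ratio over all IRF8-deficient arrays ranged over 0.724 to 0.953 in log2, with adjusted p-values of 0.28 to 1.

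Reversals outside left-out arrays were few, and their cause was not tested. For IRF8KO against WT they were Irf5 1460231_at (0.021 with quantile normalization, 0.017 with median centring) and Irf7 (0.128 and 0.072). For all IRF8-deficient arrays they were Irf4 1421173_at (-0.052 with the lower pseudocount), Irf3 1416898_a_at (0.030 quantile, 0.044 centred, 0.023 with age) and Irf5 1449678_at (-0.008 quantile, -0.002 with age).

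With 1 array left out, the results that reversed ranged as follows. For IRF8KO against WT, Irf3 1416898_a_at ranged over -1.297 to 0.534, 1426111_x_at over -0.616 to 0.364 and 1438721_a_at over -0.686 to 0.398, Irf4 1421174_at over -0.491 to 0.220, Irf5 1449678_at over -0.600 to 0.041 and 1460231_at over -0.569 to 0.412, Irf7 over -0.168 to 0.120, Irf8 1416714_at over -0.111 to 0.438 and Irf9 over -0.056 to 1.207. Each of those ends came without an IRF8KO array. For IRF4/8DKO against WT, Irf3 1416898_a_at ranged over -0.436 to 1.084 by the WT array left out, and Irf3 1426111_x_at over -0.778 to 0.632, Irf5 1449678_at over -0.113 to 0.937, Irf7 over -0.295 to 0.901 and Irf8 1416714_at over -0.106 to 0.763, all lowest without IRF4/8DKO replicate 2. For IRF4/8DKO against IRF8KO, Irf1 ranged over -0.325 to 0.464, Irf2 over -0.120 to 0.440, Irf3 1416898_a_at over -0.211 to 1.621, 1426111_x_at over -0.652 to 0.758, 1435271_at over -0.517 to 0.776 and 1438721_a_at over -0.565 to 0.520, Irf4 1421174_at over -0.622 to 0.089, Irf7 over -0.272 to 0.925, Irf8 1416714_at over -0.270 to 0.600 and 1448452_at over -0.391 to 0.625, and Irf9 over -0.748 to 0.514. For all IRF8-deficient arrays against WT, Irf3 1416898_a_at ranged over -0.789 to 0.731, 1426111_x_at over -0.452 to 0.253 and 1438721_a_at over -0.426 to 0.116, Irf4 1421173_at over -0.145 to 0.182 and 1421174_at over -0.606 to 0.069, Irf5 1449678_at over -0.200 to 0.333 and 1460231_at over -0.052 to 0.438, and Irf7 over -0.159 to 0.439. Irf1, Irf2 and Irf8 1448452_at kept their direction against WT under every alternative. As all their IRF8-deficient arrays lay above both WT arrays, leaving out an array could not reverse them, so this adds no support.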
